A study of Mus musculus with 20 samples.

Results

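The enzymes described here remove superoxide and peroxides from mouse tissue. They are 9 genes of the 54532 in the deposited count table, picked by name: 5 glutathione peroxidases (*Gpx1*, *Gpx3*, *Gpx4*, *Gpx7*, *Gpx8*), 3 superoxide dismutases (*Sod1*, *Sod2*, *Sod3*) and catalase (*Cat*). All 9 had enough counts to be tested, with 64 counts for *Gpx7* in its lowest library as the smallest value of any of them. They were chosen with the result of the knockout comparison known, so their differences between the groups are a description, and no conclusion is drawn from how many of them passed a test.

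RNA-seq was performed on temporomandibular joint (TMJ) condylar heads, the rounded ends of the lower jaw, taken with some of the bone under the cartilage. Every mouse was homozygous for a floxed *Loxl2* allele, the gene of an enzyme that crosslinks collagen and elastin, and carried Acan-CreERT2, a Cre recombinase that tamoxifen activates in cells using the aggrecan promoter, mainly chondrocytes. At 6 months of age, 8 mice (Control) were injected with vehicle and 12 mice (LOXL2_KO) with tamoxifen at 75 mg/kg on 5 days and then monthly, and tissue was taken 4 months later. Controls were given no tamoxifen. Effects of the drug and of the deletion therefore cannot be told apart. Both sexes were present in each group although the labels do not give the sex of a library.

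Superoxide dismutases turn superoxide into hydrogen peroxide and oxygen. Catalase and the glutathione peroxidases then break down hydrogen peroxide, the latter with electrons from glutathione or another thiol, and *Gpx4* also reduces lipid peroxides in membranes. The enzymes are kept in separate places: SOD1 and GPX1 mainly in the cytosol, SOD2 in mitochondria, catalase in peroxisomes, GPX4 in the cytosol, mitochondria and nucleus, SOD3 and GPX3 outside the cell, and GPX7 and GPX8 in the endoplasmic reticulum (ER), where disulfide bonds are put into collagens and other secreted proteins.

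The glutathione peroxidases differ in the amino acid that meets the peroxide, and the codon for it is shown because it separates the ER members from the rest. In GPX1, GPX3 and GPX4 it is selenocysteine, written as TGA, a codon that elsewhere ends translation, whereas the ER members have a cysteine codon. The coding sequences around this codon (GENCODE M21 transcripts, GRCm38/mm10, coding strand, 39 bases, 5′ to 3′, codon in capitals) read as follows.
*Gpx1*: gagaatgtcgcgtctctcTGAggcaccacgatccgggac
*Gpx4*: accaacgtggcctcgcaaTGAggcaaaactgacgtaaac
*Gpx3*: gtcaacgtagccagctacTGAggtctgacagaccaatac
*Gpx7*: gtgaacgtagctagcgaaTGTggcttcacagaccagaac
*Gpx8*: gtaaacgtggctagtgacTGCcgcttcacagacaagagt

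The TGA of *Gpx1* is codon 47 of its coding sequence and lies in an exon at chr9:108339451-108339453 on the plus strand. The TGA of *Gpx4* is codon 73, at chr10:80054737-80054739 on the plus strand, and that of *Gpx3* is also codon 73, at chr11:54907256-54907258 on the plus strand. Each of these 3 coding sequences holds 1 in-frame TGA before its stop codon. The cysteine codon TGT of *Gpx7* is codon 56, at chr4:108403430-108403432 on the minus strand, and TGC of *Gpx8* is codon 79, at chr13:113045661-113045663 on the minus strand.

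Library totals ran from 11153820 to 27045668 counts. *Loxl2* was not lower in the libraries labelled LOXL2_KO: it was at 64.5 CPM ± 30.9 (n = 8, SD) in control against 101 CPM ± 26.9 (n = 12, SD), a log2 fold change of 0.64 (SE 0.28, edgeR quasi-likelihood adjusted p = 0.101). CPM is the usual depth-scaled unit, here computed with TMM-scaled library sizes. The groups are therefore named by their labels throughout. Counts cover the whole gene and do not show whether exons were deleted. Why *Loxl2* RNA was not lower was not tested. The paper reported less LOXL2 protein in the knockout by immunohistochemistry. Control replicate 8 stood apart. Its 12 listed chondrocyte markers summed to 132 CPM, against 1654 to 3395 CPM in the other 7 controls. Its 12 skeletal muscle markers summed to 197400 CPM, against 55018 to 140201 CPM, so enzyme fold changes that rest on it are also given without it.

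Markers of osteoclasts, osteoblasts and macrophages were called higher, and those of skeletal muscle lower, more often than all genes tested (12% higher and 11% lower). For the other marker lists the counts were near or below these shares, and nothing is read from them. All 10 osteoclast markers were called higher in LOXL2_KO (summed level 158 to 1099 CPM in control, 545 to 5839 CPM in LOXL2_KO), as were 6 of 10 osteoblast markers (1427 to 13416 CPM and 4555 to 40871 CPM) and 8 of 9 macrophage markers (94.7 to 376 CPM and 253 to 1024 CPM). Of 12 skeletal muscle markers 5 were lower (55018 to 197400 CPM and 39022 to 101054 CPM), of 11 chondrocyte markers 2 were higher (132 to 3395 CPM and 2069 to 6024 CPM), of 8 adipocyte markers 1 was lower (1587 to 1914 CPM and 725 to 2257 CPM), of 8 neutrophil markers 1 was higher (5.67 to 154 CPM and 14.5 to 855 CPM), and none of 8 erythroid markers was called by edgeR (4 at an unadjusted p under 0.05, 0 called by DESeq2, 257 to 1429 CPM and 119 to 801 CPM). Summed levels cover every listed marker found in the count table, also those too low to test. No marker had 0 counts in all libraries. In bulk tissue, fewer cells of a type and less RNA per cell cannot be told apart, and what these cells contribute to the enzyme values was not tested beyond the fits with marker scores given with each group of enzymes.

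To compare genes with each other, CPM were divided by the length of the gene's principal transcript in kb. *Gpx3* was the most abundant at 963 CPM per kb ± 349 (n = 8, SD) in control and 1670 ± 790 (n = 12, SD) in LOXL2_KO. In control it was followed by *Gpx4* (371 CPM per kb), *Sod1* (199), *Gpx1* (102), *Cat* (73.6), *Sod2* (65.0), *Gpx8* (20.7), *Sod3* (16.9) and *Gpx7* (5.66). In LOXL2_KO the same order gave 309 CPM per kb for *Gpx4*, 196 for *Sod1*, 151 for *Gpx1*, 59.3 for *Cat*, 42.9 for *Sod2*, 36.3 for *Gpx8*, 29.5 for *Sod3* and 17.1 for *Gpx7*.

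The top of this order was separate and the rest of it less so. *Gpx3* was above *Gpx4* in 8 of 8 control and 12 of 12 LOXL2_KO libraries without overlap of the ranges, and *Gpx4* was above *Sod1* in every library, with overlapping ranges in LOXL2_KO. *Sod1* and *Gpx1* (8 of 8 control and 10 of 12 LOXL2_KO libraries in order), *Gpx1* and *Cat* in control (in order in 7 of 8 libraries), *Cat* and *Sod2* (6 of 8 control, 11 of 12 LOXL2_KO), *Gpx8* and *Sod3* (6 of 8 and 9 of 12) and *Sod3* and *Gpx7* (7 of 8 and 9 of 12) overlapped. *Sod2* and *Gpx8* did not overlap in control (8 of 8 in order) but did in LOXL2_KO (8 of 12). The order depends on the length used, because the annotated exons of *Sod1* cover 3970 bases and its principal transcript 641: per kb of all exons, *Sod1* fell behind *Sod2* in control, at 32.1 against 38.04 CPM per kb.

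Within the glutathione peroxidases, *Gpx3* made up 64.4% ± 10.2 (n = 8, SD) of the summed CPM per kb of the 5 genes in control and 73.7% ± 10.3 (n = 12, SD) in LOXL2_KO. *Gpx4* made up 26.2% ± 6.48 and 15.95% ± 6.52, and the ER members together remained a small part, with *Gpx8* at 1.51% ± 0.592 and 1.84% ± 0.747 and *Gpx7* at 0.415% ± 0.184 and 0.841% ± 0.317 (SD, with 8 and 12 libraries). Among the dismutases *Sod1* held 70.7% ± 2.09 in control and 73.5% ± 4.94 in LOXL2_KO, *Sod2* 23.1% ± 3.22 and 16.1% ± 2.78, and *Sod3* 6.12% ± 2.78 and 10.4% ± 6.33. The ranges of each of these shares overlapped between the groups. The shares depend on the length used. Per kb of all exons, control levels were 38.04 CPM per kb for *Sod2*, 32.1 for *Sod1* and 16.9 for *Sod3*. In LOXL2_KO they were 25.1, 31.6 and 29.5, so the large *Sod1* share rests on its short principal transcript.

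**Figure D1:**
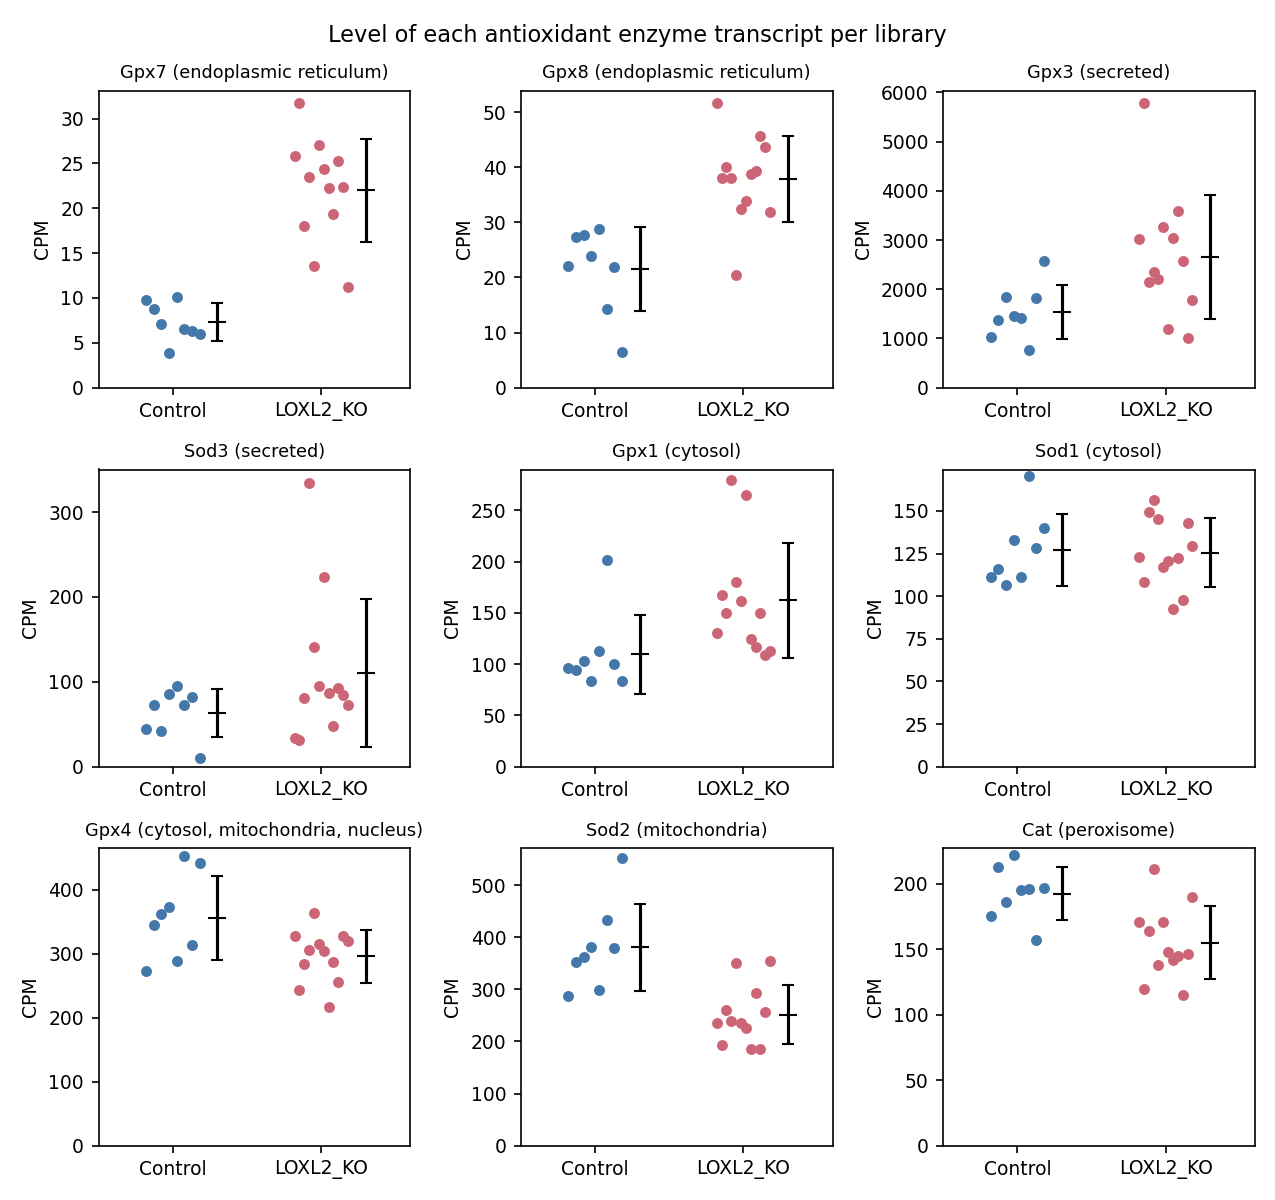
Level of each enzyme transcript in CPM (vertical axes, from 0) in the 8 Control and 12 LOXL2_KO libraries; each point is a library, and the black bar is the mean ± SD of the group. *Gpx7* is the member whose groups do not overlap (highest control 10.1 CPM, lowest LOXL2_KO 11.2 CPM), *Gpx1* and *Sod3* have their highest points in LOXL2_KO replicates 4 and 7, and *Sod1* covers about the same range in both groups.

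Between the groups, 6 of the 9 genes passed an adjusted p of 0.05: *Gpx7*, *Gpx8*, *Gpx3* and *Gpx1* were higher and *Sod2* and *Cat* lower in LOXL2_KO, while *Sod3*, *Sod1* and *Gpx4* did not pass. Of all 15984 genes tested 23% passed (12% higher and 11% lower), and nothing is read from the members' count since the same contrast was known when they were chosen. The median log2 fold change of the 9 was 0.57, beside -0.02 over all genes tested. All fold changes are LOXL2_KO minus Control from edgeR's quasi-likelihood test, adjusted over all 15984 genes. At an unadjusted p under 0.05 the count was 7 of 9, beside 37% of all genes, and with DESeq2 it was 6 of 9, beside 27.1%.

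**Figure D2:**
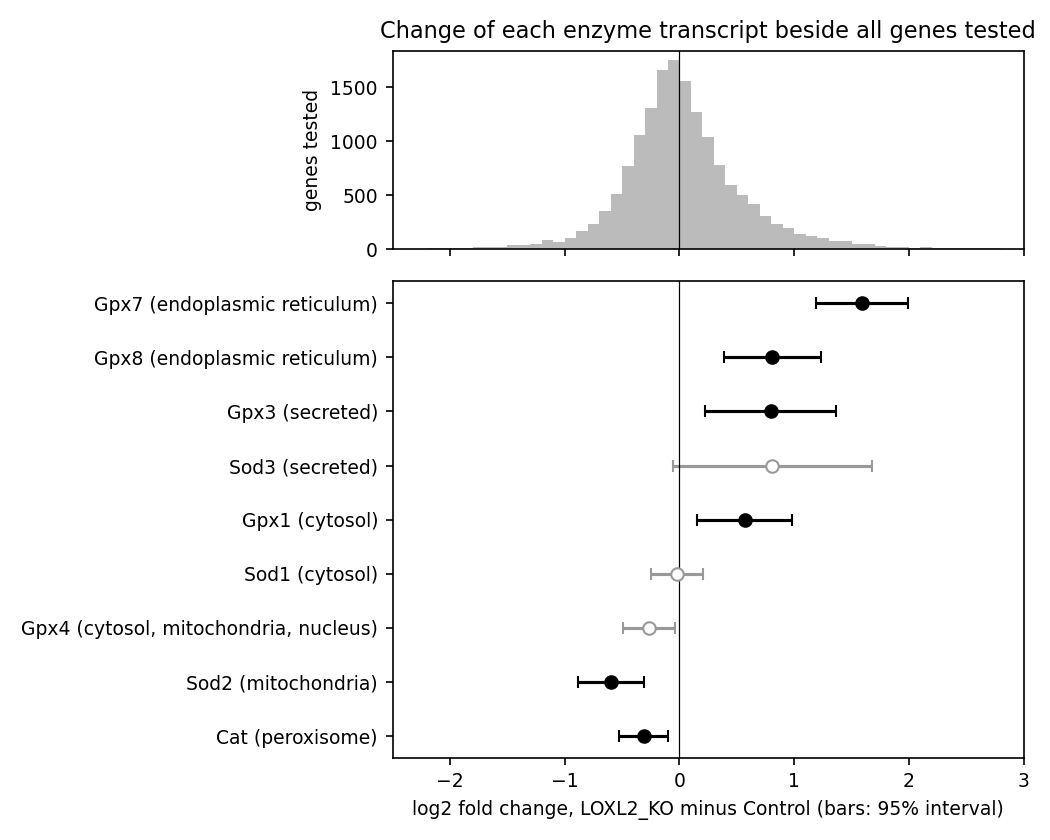
Upper panel: number of genes tested in each bin of log2 fold change (LOXL2_KO minus Control; genes beyond the axis are not drawn). Lower panel: the same quantity for each enzyme with its 95% interval, filled where the adjusted p is under 0.05; *Gpx7* lies farthest to the right at 1.59 and *Sod2* farthest to the left at -0.60.

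The ER members were both higher in LOXL2_KO. *Gpx7*, which passes oxidising equivalents from hydrogen peroxide to protein disulfide isomerases, was at 3.82 CPM in the lowest control, 6.82 at the median and 10.1 in the highest, and at 11.2, 22.9 and 31.7 CPM in LOXL2_KO. All 12 LOXL2_KO libraries lay above all 8 controls. Groups kept apart in this way, in either direction, for 0.3% of all genes tested. The means were 7.29 CPM ± 2.13 (n = 8, SD) and 22.0 CPM ± 5.74 (n = 12, SD), a log2 fold change of 1.59 (SE 0.19, adjusted p = 0.000674) or a factor of 3.014, and *Gpx7* had the smallest p of all genes tested. The lowest LOXL2_KO values were those of replicates 12 and 5 (11.2 and 13.6 CPM), which also had the highest *Sod2* of that group.

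*Gpx8*, an ER membrane protein that limits leakage of hydrogen peroxide from the ER, was at 6.43, 23.0 and 28.7 CPM (lowest, median and highest) in control and at 20.5, 38.4 and 51.7 CPM in LOXL2_KO. Of the 12 LOXL2_KO libraries 11 lay above every control, and replicate 5 lay within the control range. Its log2 fold change was 0.81 (SE 0.20, adjusted p = 0.00863), from 21.5 CPM ± 7.66 (n = 8, SD) to 37.8 CPM ± 7.83 (n = 12, SD). The lowest control was replicate 8, and without it the log2 fold change of *Gpx8* was 0.68 (adjusted p = 0.00627) and that of *Gpx7* 1.57 (adjusted p = 0.000528).

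Both ER members kept their call when any 1 of the 20 libraries was left out. With the osteoclast score in the edgeR model, no gene of the whole table was called, 1277 had an unadjusted p under 0.05, and *Gpx7* stood at 0.92 (SE 0.21, adjusted p = 0.564) and *Gpx8* at 0.32 (SE 0.28, adjusted p = 0.842). With the osteoblast score *Gpx7* stood at 1.28 (adjusted p = 0.0139) and *Gpx8* at 0.35 (adjusted p = 0.254), and with the skeletal muscle score at 1.16 (adjusted p = 0.000795) and 0.46 (adjusted p = 0.187). The group label accounted for 58.9% of the variance of the osteoclast score, 34.5% of the osteoblast score and 30.3% of the muscle score, so the score and the group are in part the same variable.

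Although both are ER enzymes, *Gpx7* and *Gpx8* were not closely tied from library to library. On log2 CPM within control, Pearson's r was 0.29 (exact permutation p = 0.462, n = 8) and Spearman's rho 0.60 (exact permutation p = 0.132, n = 8). Within LOXL2_KO, r was 0.56 (permutation p = 0.0686, n = 12) and rho 0.26 (permutation p = 0.416), and r was -0.08 once the 2 libraries most distant from the median *Gpx7* were dropped. After adjustment over the 10 relations computed, neither passed in either group (adjusted p from 0.171 to 0.594).

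**Figure D3:**
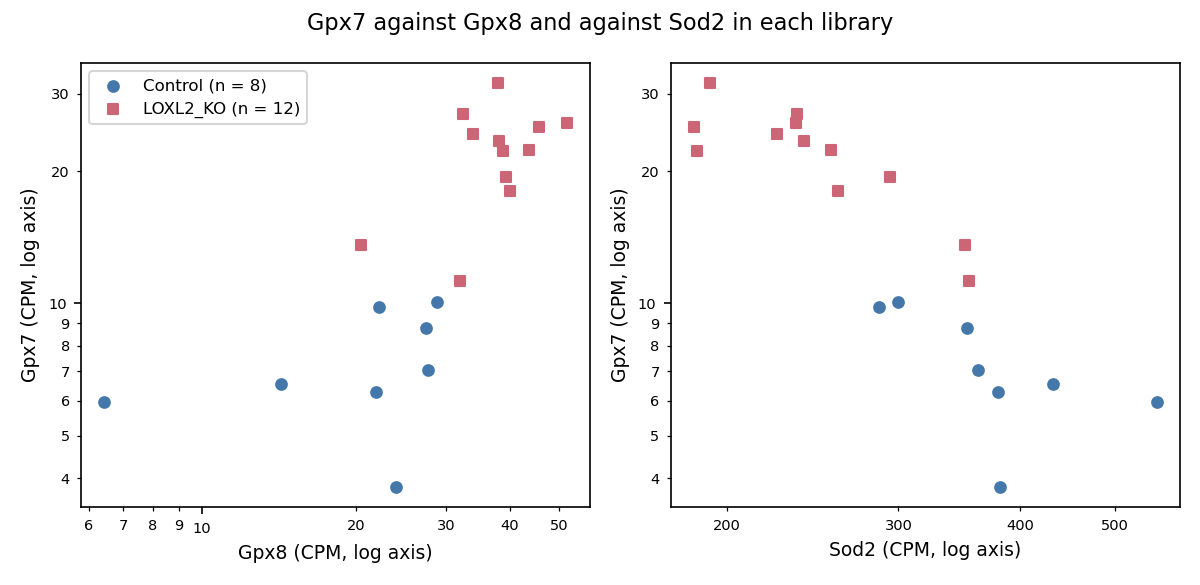
*Gpx7* (vertical, CPM, log axis) against *Gpx8* (left) and *Sod2* (right), both horizontal in CPM on log axes; each point is 1 of 8 Control or 12 LOXL2_KO libraries. *Gpx7* separates the groups on the vertical axis in both panels. Within LOXL2_KO the libraries with the most *Sod2* (replicates 12 and 5) have the least *Gpx7* and the highest skeletal muscle marker sums.

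The genes whose levels followed each ER member most closely were different for the 2 members. Likeness was measured as Pearson's r of log2 CPM over 20 libraries after the group means were taken away, among 13957 protein-coding genes. For *Gpx7* the nearest were *Tcf19* (r = 0.91), *Pdlim2* (0.89), *Mpv17l* (0.87), *Pafah1b3* (0.87) and *Sh3bgrl* (0.86). For *Gpx8* they were *Plod2* (r = 0.94), a collagen lysyl hydroxylase of the ER, *Kdelr3* (0.93), a receptor that returns proteins to the ER, *Fkbp7* (0.93), an ER prolyl isomerase, *0610010K14Rik* (0.93) and *Tmem45a* (0.92). *Gpx8* ranked 3946 of 13957 for *Gpx7* with r = 0.38, and *Gpx7* ranked 3218 for *Gpx8*. For the listed genes nearest *Gpx8*, r was 0.96 to 0.98 within control and 0.80 to 0.89 within LOXL2_KO. Spearman's rho over the 20 libraries was 0.80 to 0.93. Control replicate 8 had the lowest *Gpx8* (6.43 CPM), and likeness without that library was not computed. These are descriptions over libraries that share scaling and tissue makeup.

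Of the nearest genes of *Gpx8*, *Kdelr3* was called higher in LOXL2_KO at 1.48 (adjusted p = 0.0014), as were *Fkbp7* at 0.95 (adjusted p = 0.00705) and *Tmem45a* at 0.88 (adjusted p = 0.0239). *Plod2* at 0.77 (adjusted p = 0.0903) and *0610010K14Rik* at -0.14 (adjusted p = 0.792) did not pass. Of those of *Gpx7*, *Sh3bgrl* (0.79), *Pdlim2* (1.02) and *Tcf19* (0.999) were called higher, and *Mpv17l* at 0.83 (adjusted p = 0.133) and *Pafah1b3* at 0.14 (adjusted p = 0.804) did not pass.

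Among the genes for oxidative folding in the ER, 9 of 16 tested were higher in LOXL2_KO and none was lower, where 12% of all genes tested were higher, and the median log2 fold change was 0.54 beside -0.02 over all genes. *P4hb*, the protein disulfide isomerase that is also a subunit of collagen prolyl hydroxylase, was at 280 CPM ± 31.7 (n = 8, SD) and 425 CPM ± 54.5 (n = 12, SD), a log2 fold change of 0.60 (SE 0.10, adjusted p = 0.00111). *Prdx4*, the peroxiredoxin of the ER and a second route from peroxide to disulfides, was at 14.0 CPM ± 3.91 and 24.6 CPM ± 4.91, or 0.80 (SE 0.16, adjusted p = 0.00255). The disulfide isomerases *Pdia5* (1.24) and *Txndc5* (0.74) were higher as well. Each of these 4 genes was above the control median in 12 of 12 LOXL2_KO libraries, as were 7.2% of all genes tested. The 4 were named for having the smallest p of the list in this same contrast, so this is no separate evidence. With the osteoclast score none of the 16 was called, as was no gene of the whole table. With the osteoblast score 3 of the 16 were called, beside 389 of all 15984 genes tested.

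**Figure D4:**
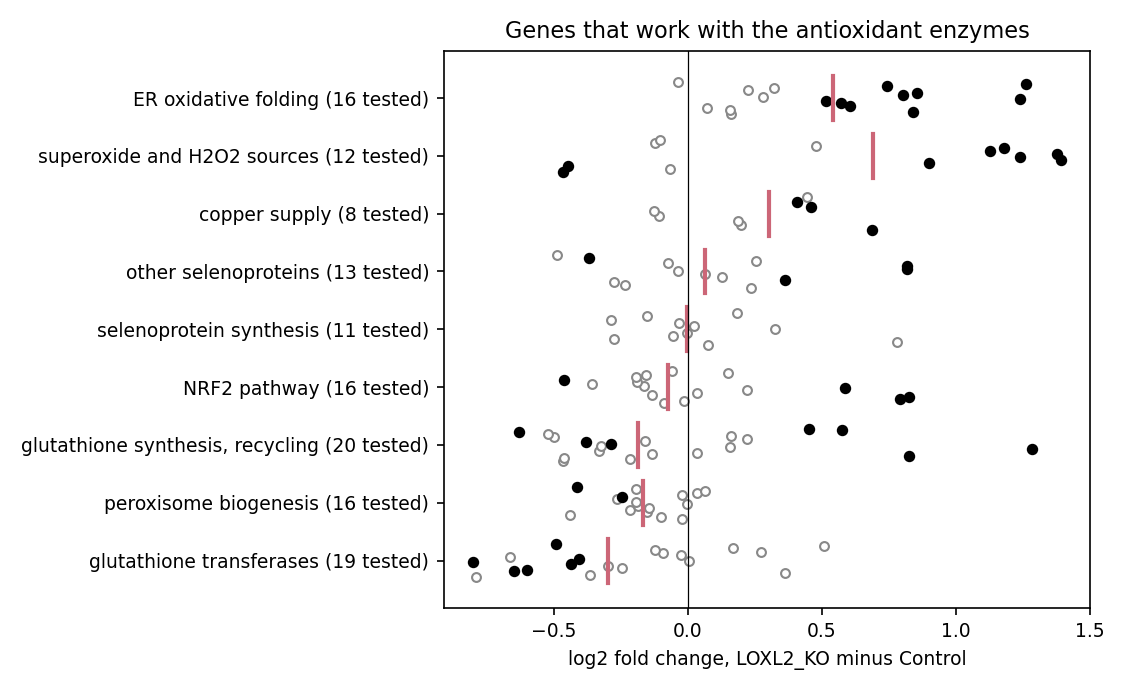
Log2 fold change (LOXL2_KO minus Control) of each tested gene in the lists of genes that work with these enzymes; filled points have an adjusted p under 0.05, open points do not, and the red bar is the median of the list. The medians run from -0.30 for glutathione transferases to 0.69 for sources of superoxide and hydrogen peroxide, beside -0.02 for all genes tested.

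Outside the cell, the levels of *Gpx3* and *Sod3* were wide. *Gpx3*, the peroxidase of plasma and extracellular matrix, was at 766, 1436 and 2582 CPM (lowest, median and highest) in control and at 1013, 2460 and 5787 CPM in LOXL2_KO. The groups overlapped: 10 of 12 LOXL2_KO libraries were above the control median and 5 above every control. The means were 1535 CPM ± 556 (n = 8, SD) and 2662 CPM ± 1259 (n = 12, SD), a log2 fold change of 0.79 (SE 0.28, adjusted p = 0.0418). The highest library was LOXL2_KO replicate 2, which also had the highest osteoclast and osteoblast marker sums (5839 and 40871 CPM), and without it the log2 fold change was 0.63 (adjusted p = 0.0736).

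The call of *Gpx3* was lost when any of control replicates 1 to 6 or LOXL2_KO replicates 1, 2, 6, 8, 9 or 10 was left out, so that it held in 8 of 20 fits. Without control replicate 8, whose 2582 CPM was the highest of the controls, the log2 fold change was 0.95 (adjusted p = 0.0253). With the osteoclast score it was -0.01 (SE 0.40, adjusted p = 0.997).

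*Sod3*, which binds the matrix and removes superoxide there, was at 10.6, 72.2 and 95.2 CPM in control and at 31.3, 85.9 and 334 CPM in LOXL2_KO. The groups overlapped over most of their range, and 4 LOXL2_KO libraries lay above every control: replicates 4 (334 CPM), 7 (224 CPM), 5 (141 CPM) and 6 (95.23 CPM), the last by less than 0.1 CPM. The coefficient of variation in LOXL2_KO was 79.0%, the widest of the 9 genes in either group. The log2 fold change of 0.81 (95% interval -0.05 to 1.67, adjusted p = 0.161) missed the threshold under all alternatives. It was 0.66 without control replicate 8, the lowest library, and 0.52 without LOXL2_KO replicate 4. With the erythroid score it was 0.38 (adjusted p = 0.607) and with the osteoclast score 1.30 (SE 0.56, adjusted p = 0.589), the lowest and highest values of the fits that kept all libraries. *Gpx3* and *Sod3* were not tied to each other (Pearson's r -0.56, exact permutation p = 0.173, n = 8 in control; r -0.54, permutation p = 0.0667, n = 12 in LOXL2_KO; adjusted p = 0.247 and 0.171).

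In the cytosol, *Gpx1* was higher in LOXL2_KO and *Sod1* was not different beyond its spread. *Gpx1*, the peroxidase found in most cells, was at 83.4, 98.1 and 202 CPM in control and at 109, 150 and 279 CPM in LOXL2_KO. All 12 LOXL2_KO libraries were above the control median, yet only 2 exceeded every control, because control replicate 6 was at 202 CPM while the other 7 controls were at 113 CPM or less. Between the groups the log2 fold change was 0.57 (SE 0.20, adjusted p = 0.0433), from 109 CPM ± 38.6 (n = 8, SD) to 162 CPM ± 56.2 (n = 12, SD). Without control replicate 6 it was 0.76 (adjusted p = 0.00844).

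The *Gpx1* call lay close to the threshold. It held in 7 of the 20 fits that left out 1 library (without control replicate 6 or LOXL2_KO replicates 1, 3, 8, 9, 11 or 12) and was lost without any other, with 0.47 (adjusted p = 0.0702) without LOXL2_KO replicate 4 and 0.53 (adjusted p = 0.083) without control replicate 8. With the osteoblast score it was 0.88 (adjusted p = 0.0304), and with the osteoclast score 0.70 (SE 0.30, adjusted p = 0.592). With the erythroid score it was 0.63 (adjusted p = 0.0636).

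*Sod1*, the copper and zinc dismutase, was at 107, 122 and 170 CPM in control and at 92.6, 123 and 156 CPM in LOXL2_KO, so that the ranges largely coincided. The log2 fold change was -0.02 with a 95% interval from -0.24 to 0.20 (adjusted p = 0.912), and its sign changed with the scaling: with library totals alone, which raise the median of all genes from -0.02 to 0.12, it was 0.13. The interval does not show that the groups were equal.

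*Gpx4*, which protects membranes from lipid peroxidation, was at 273, 353 and 453 CPM in control and at 216, 305 and 364 CPM in LOXL2_KO. Of the 12 LOXL2_KO libraries 11 were below the control median and 3 below every control. The log2 fold change was -0.27 (95% interval -0.50 to -0.04, adjusted p = 0.0825), from 356 CPM ± 65.9 (n = 8, SD) to 296 CPM ± 41.2 (n = 12, SD). It passed in the fit without control replicate 1 (-0.32, adjusted p = 0.0412) and after removal of a GC trend (-0.41, adjusted p = 0.0331), and stood at 0.04 with the osteoclast score. With DESeq2, the study's test, the change was -0.28 (adjusted p = 0.0504), just short of the threshold. From its RNA-seq the paper reported *Gpx4* as downregulated in the knockout and *Sod1* as unchanged. A processed copy of the gene, *Gpx4-ps2*, held 22459 counts over all libraries, and reads shared between the copies could have been assigned to either.

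Of the 5 pairs compared within each group, *Gpx4* and *Sod1* were the most closely tied. Pearson's r on log2 CPM was 0.77 in control (exact permutation p = 0.0254, adjusted p = 0.127, n = 8) and 0.75 in LOXL2_KO (permutation p = 0.00472, adjusted p = 0.0472, n = 12), and it was 0.59 and 0.52 once the 2 libraries most distant from the median *Gpx4* were dropped. Spearman's rho was 0.71 (exact permutation p = 0.0576, n = 8) and 0.59 (permutation p = 0.0451, n = 12), with an adjusted p of 0.288 for each. This was the 1 relation of 10 to pass on Pearson's r, and it did not pass on rho or with library totals as scaling. With 1 library left out, no relation passed without control replicates 2, 4, 6 or 7 or LOXL2_KO replicates 1, 2, 5 or 7 to 12. *Gpx1* with *Sod1* (adjusted p = 0.247 in control and 0.513 in LOXL2_KO) and *Sod2* with *Cat* (adjusted p = 0.676 and 0.247) did not pass.

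In mitochondria and peroxisomes the called differences were downward. *Sod2*, the manganese dismutase of the mitochondrial matrix, was at 286, 371 and 552 CPM in control and at 185, 238 and 355 CPM in LOXL2_KO. All 12 LOXL2_KO libraries were below the control median, as they were for 5.59% of all genes tested, and 9 of them were below every control. A log2 fold change of -0.60 (SE 0.14, adjusted p = 0.00565) was found, from 381 CPM ± 83.4 (n = 8, SD) to 251 CPM ± 57.1 (n = 12, SD), or 0.66-fold. The highest library was control replicate 8, the one with the highest muscle marker sum, and without it *Sod2* was at -0.49 (adjusted p = 0.0166).

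*Sod2* kept its call when any 1 library was left out. Reads of the mitochondrial genome made up 15.2 to 23.1% of counts in control and 9.06 to 18.3% in LOXL2_KO. With a marker score in the model *Sod2* stood at -0.25 for skeletal muscle (SE 0.09, adjusted p = 0.106), -0.29 for osteoblasts (adjusted p = 0.25) and -0.15 for osteoclasts (adjusted p = 0.9).

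*Cat*, the peroxisomal enzyme that splits hydrogen peroxide without glutathione, was at 157, 195 and 221 CPM in control and at 115, 147 and 211 CPM in LOXL2_KO. Of the 12 LOXL2_KO libraries 11 were below the control median and 7 below every control, whereas replicate 4 at 211 CPM was near the top of the control range. Its log2 fold change was -0.31 (SE 0.10, adjusted p = 0.0345), from 192 CPM ± 20.3 (n = 8, SD) to 155 CPM ± 27.8 (n = 12, SD). The call was lost without control replicates 2, 4, 6 or 8 or LOXL2_KO replicates 2, 7, 8, 9, 10 or 11, with -0.27 as the smallest change, and it was also lost with library totals alone (-0.17, adjusted p = 0.261) and with no filter on low counts (adjusted p = 0.0791). With a marker score in the model *Cat* stood at -0.19 for osteoclasts (adjusted p = 0.824), -0.24 for osteoblasts (adjusted p = 0.315), -0.20 for skeletal muscle (adjusted p = 0.307) and -0.30 for adipocytes (adjusted p = 0.0811), and it was not called in these fits.

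**Figure D5:**
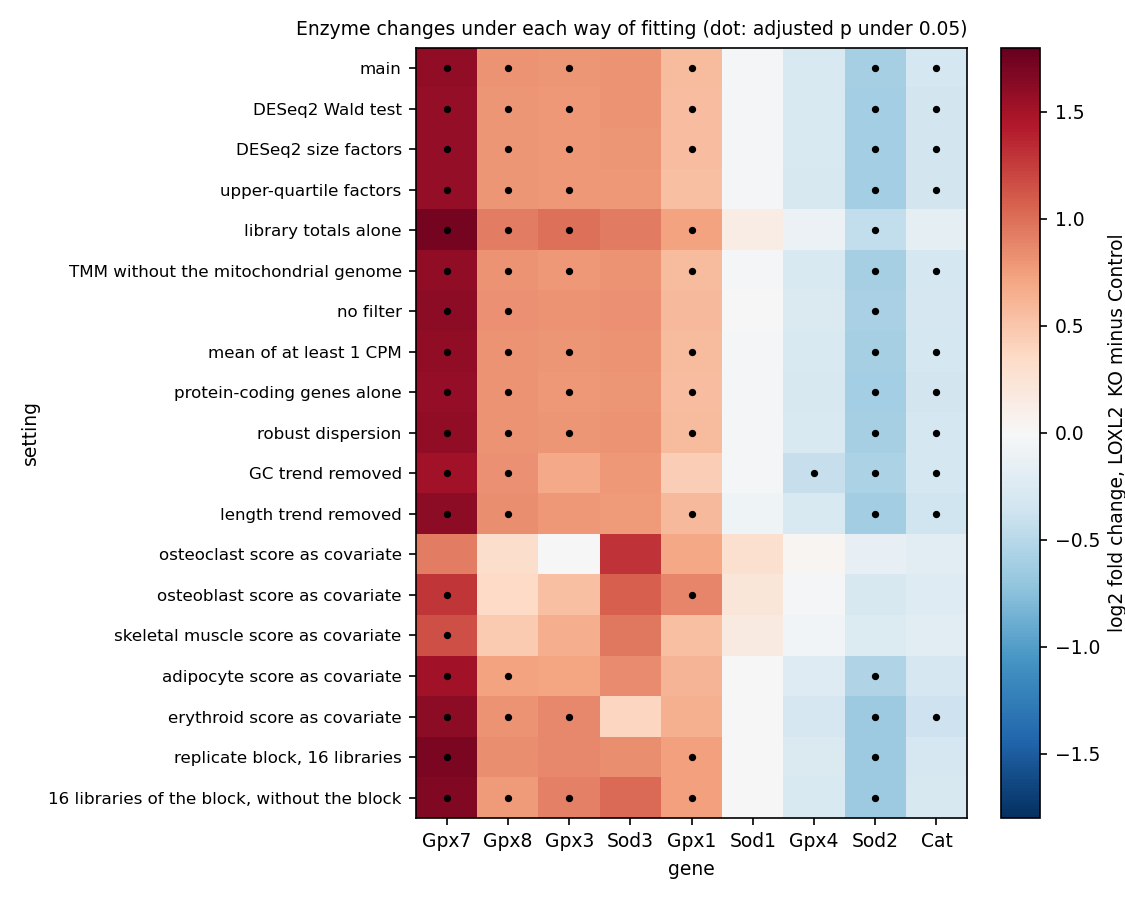
Log2 fold change of each enzyme (columns) under each way of fitting (rows), as colour; a dot marks an adjusted p under 0.05. *Gpx7* has a dot in every row but that of the osteoclast score, *Sod1* and *Sod3* have none, and the rows with osteoclast, osteoblast or skeletal muscle scores have 0, 2 and 1 dots.

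Of 8 genes for the supply of copper to SOD1, SOD3 and other enzymes, 3 were higher and none lower (12% of all genes tested were higher, median log2 fold change 0.30). They were *Atox1*, the copper chaperone of the secretory route, at 0.69 (SE 0.15, adjusted p = 0.00403), and the copper transporters *Slc31a1* at 0.46 and *Slc31a2* at 0.41. The other 5 did not pass, *Steap4* at 0.44 (adjusted p = 0.073) among them. Of 11 tested genes for selenoprotein synthesis none was called by edgeR (median 0.00), with 1 at an unadjusted p under 0.05, *Pstk* at -0.27 (adjusted p = 0.126). DESeq2 likewise called none of them. The next by p were *Sephs2* at -0.29, *Trnau1ap* at 0.18 and *Lrp8* at 0.78, and *Lrp2* was too low to test.

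Among the other selenoproteins 3 of 13 tested were higher and 1 lower (median 0.07), beside 23% called among all genes. *Selenom* at 0.82 (SE 0.18, adjusted p = 0.00454), *Selenon* at 0.82 and *Selenof* at 0.36 are ER proteins and were the higher ones, and *Selenot*, also of the ER, was lower at -0.37 (adjusted p = 0.00929). *Gpx2*, *Gpx5* and *Gpx6*, the glutathione peroxidases of gut epithelium, epididymis and olfactory tissue, had 9, 0 and 110 counts over all 20 libraries and were not tested.

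Of 20 tested genes for glutathione synthesis and recycling 4 were higher and 3 lower (median -0.19), beside 12% and 11% of all genes. *Ggt5*, an enzyme that cleaves extracellular glutathione compounds, was at 6.55 CPM ± 2.25 (n = 8, SD) and 15.9 CPM ± 7.02 (n = 12, SD), or 1.28 (SE 0.26, adjusted p = 0.00244). *Pgd*, which makes NADPH, and the amino acid transporter subunit *Slc3a2* were higher at 0.58 and 0.45. *Oplah*, which returns oxoproline to glutamate, was lower at -0.63 (SE 0.13, adjusted p = 0.00319). *Slc7a11*, *Nnt* and *Ggt1* were too low to test.

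The glutathione transferases, which join glutathione to other compounds, had 6 of 19 tested genes lower and none higher (median -0.30), where 11% of all genes tested were lower. *Gstm1* was at 145 CPM ± 37.7 (n = 8, SD) and 95.5 CPM ± 20.6 (n = 12, SD), or -0.60 (SE 0.15, adjusted p = 0.00734), *Gstm7* at -0.80, *Gstk1* at -0.65 and *Mgst3* at -0.49. Of 16 genes for peroxisome biogenesis 2 were lower and none higher (11% of all genes were lower; median -0.17), *Pex7* at -0.41 (SE 0.08, adjusted p = 0.00271) and *Pex2* at -0.24 (adjusted p = 0.0246), with *Pex19* at -0.26 and *Pex6* at -0.19 not passing.

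Of 12 tested genes whose products make superoxide or hydrogen peroxide, 6 were higher and 2 lower (median 0.69), beside 12% and 11% of all genes. The higher ones included subunits of the phagocyte NADPH oxidase: *Cyba* at 13.0 CPM ± 3.85 (n = 8, SD) and 24.1 CPM ± 5.85 (n = 12, SD), or 0.90 (SE 0.17, adjusted p = 0.00196), *Cybb* at 1.39 (adjusted p = 0.00258) and *Ncf1* at 1.38 (adjusted p = 0.00295). Macrophages and osteoclasts use these genes, and their markers were higher too, by the counts and ranges given with the marker lists. Of 8 neutrophil markers 1 was called higher, with a median log2 fold change of 2.06. What any of these cells contribute to these values was not tested.

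Of 16 tested genes of the NRF2 response, the programme that raises antioxidant enzymes under oxidative stress, 3 were higher and 1 lower (median -0.07), a share near the 23% called among all genes tested. *Ftl1*, the ferritin light chain, was at 0.79 (SE 0.13, adjusted p = 0.00125), *Hmox1* at 0.59 (adjusted p = 0.00854) and *G6pdx* at 0.83 (adjusted p = 0.018), while *Nqo1* was lower at -0.46 (adjusted p = 0.0265). With the osteoclast score in the model none of the genes in these lists was called, as was no gene of the whole table. With the osteoblast score the calls left were 3 for ER folding, 4 for superoxide and hydrogen peroxide sources and 1 for the NRF2 response, all higher. Over all 15984 genes tested, 389 were called in that fit, 303 of them higher.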

How the data were processed

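The table deposited by the authors holds raw counts per Ensembl gene for 20 libraries. Per the study's methods, paired-end Illumina reads from TRIzol RNA were trimmed by the sequencing company's script, mapped to mm10 and counted with featureCounts 1.5.0-p3. The aligner, annotation, strand setting and treatment of multimapping reads are not given in the sources used here. Of 54532 genes, 54495 had an identifier in GENCODE M21 of the same build. *Sod1* and *Scaf4*, and *Gpx8* and *Cdc20b*, lie on opposite strands and share 0 exon bases.

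The members and lists were chosen with earlier results of these data known. The 9 members are all named. From each list, counts are given with up to 4 tested genes of smallest p (1 such gene is not reported here), and the 5 genes most like *Gpx7* and *Gpx8* are named. The enzymes' cell compartments are background knowledge.

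Counts were analysed with edgeR 4.0.16 in R 4.3.3: filterByExpr kept 15984 genes, TMM scaled the libraries, and the groups were compared over all 20 of them by the two-sided quasi-likelihood F-test. P-values were adjusted by Benjamini-Hochberg, and 0.05 was the limit for a call. SE were derived from F. CPM use TMM-scaled sizes, and log2 CPM a prior count of 2. Correlations have two-sided permutation p-values, exact with 8 libraries. The procedure was tested on simulated counts. A gene is not detected under 3 counts, and this covers counting error only.

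Alternatives were DESeq2 1.42.0 (the study's test), other scalings and filters, GC and length trends, osteoclast, osteoblast, skeletal muscle, adipocyte and erythroid marker scores as covariates, the replicate number as a block, and each library left out. The labels give no batch. No 2 libraries held the same counts (smallest chi-square 32.9 per degree of freedom among 190 pairs). Each library is a separate sample, but the labels do not name the animal, and p-values measure the spread between these samples.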

Additional observations from a re-analysis of the deposited data

Results flagged for a closer look

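Values were looked at for a library far from the others in the group of 8 controls (Dixon's criterion, 0.526 for 8 samples), over 20 measures: the 9 enzymes, *Loxl2*, library totals, the mitochondrial share and 8 marker sums. Chance flags about 1 in 20 groups of independent, normally distributed values, and 3 were flagged here. The measures are not on a log scale and share libraries, so nothing is read from that count. The 12 LOXL2_KO libraries are too many for this criterion and were not tested.

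*Gpx1* in control replicate 6 was at 202 CPM, a gap of 0.748 of the range of the controls. That library also had the highest *Sod1* (170 CPM) and *Gpx4* (453 CPM) of the controls, the lowest *Gpx3* (766 CPM) and the highest erythroid marker sum (1429 CPM against 257 to 989 CPM). With the erythroid score in the model the log2 fold change of *Gpx1* was 0.63 (SE 0.24, edgeR adjusted p = 0.0636), and its call was lost. Without a score it was 0.57 (SE 0.20, edgeR adjusted p = 0.0433), so the change was not smaller with the score, while its SE was larger.

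Control replicate 5 stood apart in its osteoclast marker sum of 1099 CPM (gap 0.679 of the range) and its osteoblast marker sum of 13416 CPM (gap 0.649). It had the highest *Gpx7* (10.1 CPM), *Gpx8* (28.7 CPM) and *Sod3* (95.2 CPM) of the controls, and without it the log2 fold change was 1.67 for *Gpx7* and 0.88 for *Gpx8*.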

How the results depend on the processing

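Leaving out 1 library at a time gave 2551 to 4181 genes called (1563 to 2227 higher, 988 to 2038 lower), 3 to 6 enzymes (2 to 4 higher, 1 to 3 lower) and 0 to 2 within-group relations. The lowest gene counts came without control replicate 8. *Gpx7*, *Gpx8* and *Sod2* were called in 20 of 20 such fits. Library totals alone gave 2188 genes higher and 849 lower, beside 1918 and 1755, with 1 enzyme lower, and no filter gave 3 enzymes (2 higher, 1 lower). Removal of a GC trend left 2 enzymes higher. DESeq2 called 4331 genes and the same number of enzymes, 6.

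With marker scores the genes called were 0 for osteoclast, 389 for osteoblast (303 higher, 86 lower), 394 for skeletal muscle (219 and 175) and 2174 for adipocyte (1194 and 980), and the enzymes called were 0, 2 (2 higher, 0 lower), 1 (1 and 0) and 3 (2 and 1). Log2 fold changes turned sign with the osteoclast score for *Sod1* (0.29), *Gpx4* (0.039), *Gpx3* (-0.0095), *Steap4* (-0.30), *Pstk* (0.016), *Sephs2* (0.18), *Pex19* (0.0042), *Mgst3* (0.0033), *Tcf19* (-0.41), *Pdlim2* (-0.14), *Mpv17l* (-0.28) and *Pafah1b3* (-1.23), with the osteoblast score for *Sod1* (0.21), *Sephs2* (0.086) and *Pafah1b3* (-0.53), with the muscle score for *Sod1* (0.17), *Sephs2* (0.082) and *Pafah1b3* (-0.62), and for *Sod1* with the adipocyte score (0.0039), library totals (0.13) and in the fits that left out 1 library (-0.053 to 0.059). The cause of these changes was not tested.

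The replicate number as a block in the 16 libraries numbered 1 to 8 gave 1786 genes (1100 higher, 686 lower) and 3 enzymes (2 higher, 1 lower: *Gpx7*, *Gpx1* and *Sod2*). The same 16 libraries without the block, a fit added after the data were seen, gave 3280 genes and 5 enzymes, 1 of them lower. Same-numbered libraries did not deviate together over all genes (correlations from -0.36 to 0.17, over 0.1 in 2 of 8 pairs, 0 of 8 controls closest to their own number). A shared litter or batch with a small effect would not show in these correlations, so pairing was not excluded. The labels do not say what a number marks. No relation passed with library totals or a prior count of 0.5.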

Other observations

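All 36 pairs of the 9 enzymes were also correlated on log2 CPM within each group, 72 relations in all, a family added after the data were seen. *Sod2* and *Gpx7* in LOXL2_KO were the 1 pair to pass on Pearson's r (r = -0.86, permutation p = 0.00045, adjusted p = 0.0324, n = 12), with r = -0.61 once the 2 libraries most distant from the median *Sod2* were dropped. Spearman's rho was -0.74 (permutation p = 0.00762, adjusted p = 0.192) and did not pass. LOXL2_KO replicates 12 and 5, with the most *Sod2* and the least *Gpx7*, also had the highest skeletal muscle marker sums of the group. These sums were 101054 and 94317 CPM, against 39022 to 75841 CPM in the rest. The part of tissue makeup in this relation was not tested. *Gpx4* and *Sod2* had the next smallest p, with r = 0.89 in control (exact permutation p = 0.0033, adjusted p = 0.0936, n = 8) and 0.76 in LOXL2_KO (permutation p = 0.00473, adjusted p = 0.0936, n = 12), and did not pass.

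*Gpx1* and *Sod3* were both highest in LOXL2_KO replicates 4 and 7 (279 and 265 CPM for *Gpx1*, 334 and 224 CPM for *Sod3*). Their r within LOXL2_KO was 0.72 (permutation p = 0.00906, adjusted p = 0.109, n = 12) and 0.19 once the 2 most distant from the median *Gpx1* were dropped, so the relation rests on those libraries. These libraries also had the highest macrophage marker sums of the group, 805 and 1024 CPM against 253 to 728 CPM in the other 10, and the part of those cells was not tested.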
